A study of Mus musculus with 4 samples.

Results

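Cycling barcodes were the cell barcodes in which at least 3 of 6 proliferation genes, Mki67, Top2a, Birc5, Ube2c, Cdk1 and Cenpf, had 1 or more UMIs (unique molecular identifiers, each standing for 1 captured RNA molecule). They numbered 423 of the 14451 barcodes kept from 4 libraries of myeloid cells of the mouse ankle synovium, with 104 at baseline, 103 at peak, 115 at plateau and 101 at resolution. The rule was applied after barcodes with fewer than 300 genes, or with more than 10% mitochondrial UMIs, had been removed. RNA and surface proteins were counted together by CITE-seq, in which each antibody carries a DNA tag that is read beside the RNA of the cell. All mice were bone marrow chimeras, CD45.2 B6 hosts carrying CD45.1 B6 marrow, whose ankle had been shielded during irradiation, so host cells could persist in the joint. Baseline mice (day 0) were given no treatment. The other mice had arthritis induced by retro-orbital K/BxN serum (STIA) and were taken 7 days (peak), 14 days (plateau) or 56 days (resolution) after it. Titles of the 3 arthritis samples include an unexplained tag, Clo-lip, absent at baseline, so any effect of it cannot be told apart from that of arthritis. Per the labels, the sorted cells were live, positive for CD45 and CD11b, and negative for CD177, Ly6C, MHC class II, CD64, SiglecF and Ly6G. Each stage had 1 library, and the age and number of the mice are not given in the sources used here.

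A dividing cell first licenses its replication origins and copies its DNA and histones (S phase), then builds a spindle and separates its chromosomes (mitosis). Of the 6 genes used, Mki67 encodes the Ki-67 protein that coats mitotic chromosomes, Top2a a topoisomerase that untangles DNA, and Birc5 the survivin subunit of the chromosomal passenger complex. Ube2c encodes a ubiquitin carrier for the anaphase-promoting complex, Cdk1 the kinase that drives entry into mitosis, and Cenpf a kinetochore protein. Neutrophils arise in marrow from granulocyte-monocyte progenitors whose granule genes mark successive stages, and mature neutrophils do not divide. Monocytes are made in marrow as well, while many tissue macrophages renew themselves locally. Osteoclasts form by fusion of monocyte-lineage precursors and resorb bone, and the fused cell no longer divides.

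The 2 tags that separate donor from host cells, and the tag of the antibody that stood furthest apart on cycling barcodes, are printed because the surface results rest on them. CD45.1 marks donor marrow, CD45.2 marks the host, and CD71 is the transferrin receptor, which brings in iron and is known to be abundant on dividing cells.
CD45.1: cctatggacttggac
CD45.2: caccgtcattcaacc
CD71: accgaccagtagaca

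The genes of mitosis are known to be controlled through CHR elements and CCAAT boxes in their promoters. The 250 bases before the start of 3 of the rule genes are printed 5′ to 3′ on the gene's strand (RefSeq, GRCm38.p6), since these 3 showed how densely both motifs can be packed. Capitals mark TTTGAA or TTCAAA (the CHR core on either strand) and CCAAT or ATTGG (the CCAAT box on either strand). Top2a lies at chr11:99024190-99024439 on the minus strand, Ube2c at chr2:164769679-164769928 on the plus strand and Cdk1 at chr10:69352913-69353162 on the minus strand.
Top2a: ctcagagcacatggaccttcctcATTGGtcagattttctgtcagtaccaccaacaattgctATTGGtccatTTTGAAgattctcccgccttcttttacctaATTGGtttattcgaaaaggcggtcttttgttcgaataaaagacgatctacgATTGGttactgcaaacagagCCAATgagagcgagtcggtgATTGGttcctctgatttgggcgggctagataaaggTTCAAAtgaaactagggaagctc
Ube2c: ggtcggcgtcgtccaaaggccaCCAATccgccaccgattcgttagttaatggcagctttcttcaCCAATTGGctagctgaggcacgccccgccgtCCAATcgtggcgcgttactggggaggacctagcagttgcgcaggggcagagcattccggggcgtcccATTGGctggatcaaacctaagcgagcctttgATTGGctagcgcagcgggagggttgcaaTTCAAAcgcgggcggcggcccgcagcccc
Cdk1: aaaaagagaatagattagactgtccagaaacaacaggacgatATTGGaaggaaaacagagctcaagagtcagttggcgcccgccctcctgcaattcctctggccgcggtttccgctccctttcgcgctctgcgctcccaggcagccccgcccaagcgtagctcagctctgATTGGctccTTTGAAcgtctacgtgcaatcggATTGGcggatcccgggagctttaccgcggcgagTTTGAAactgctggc

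Top2a held 2 CHR and 6 CCAAT matches, Ube2c 1 and 6 (1 pair of its CCAAT matches overlapped), and Cdk1 2 and 3. Mki67 held 2 CHR and 3 CCAAT matches, Cenpf 2 CCAAT matches alone, and Birc5 neither motif in this window. A CHR core was thus present in 4 of the 6 rule genes, against 16.3% of 27025 listed promoters. A CCAAT box was present in 5 of 6, against 34.2%, and both motifs together in 4 of 6, against 5.67%. Among the 99 genes that were at least 2-fold higher in cycling barcodes of every library (described further on), 78 had a listed promoter. A CCAAT box stood in 65.4% of those 78 and a CHR core in 28.2%, against 36.2% and 10.5% of the 1904 tested genes with a promoter. Of 17 matched promoters of genes lower in every library, 35.3% held a CCAAT box and 41.2% a CHR core. These matches describe letters in a window and were not tested as binding sites.

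The libraries held 1128, 6490, 3104 and 4779 barcodes from baseline to resolution, with 27250421 to 59816482 gene UMIs in the arthritis libraries and 12015315 at baseline. Cycling barcodes were deeper than the rest in every library, with median gene UMIs of 26590 against 7277 in non-cycling barcodes at baseline, 27825 against 8200.5 at peak, 23464 against 6603 at plateau and 12818 against 4840 at resolution. Because the rule counts detected genes, deeper barcodes pass it more easily, and shares were therefore also taken after each barcode had been thinned at random to 3000 gene UMIs. No barcode sequence was cycling in more than 1 library, though each pair of libraries shared 0 to 9 kept sequences. Both CD45 antibodies had at least 10 UMIs, as 2 cells in 1 droplet would give, in 15.4% of cycling barcodes (16 of 104) against 3.10% of non-cycling barcodes at baseline. From peak to resolution the cycling and non-cycling shares were 5.83% and 2.07%, 2.61% and 1.58%, and 0.990% and 0.466%. The cut of 10 UMIs is absolute, so barcodes with more antibody UMIs reach it more easily. Median antibody UMIs at baseline were 3518 per cycling barcode against 867 per non-cycling one. The doublet caller Scrublet marked 1 of the 423 cycling barcodes, too few overall for it to have worked. No barcode was removed as a doublet in the main results. Median Scrublet scores were higher in cycling than in non-cycling barcodes of all 4 libraries, and most apart at resolution (0.0848 against 0.0420). There 19.8% of cycling barcodes (20 of 101) reached the score cut for the library's top 6%, against 6.61% of non-cycling ones. At the other stages these shares were 8.65% against 8.69%, 8.74% against 7.07% and 6.09% against 6.27%. Tied scores put more than 6% of barcodes at or above this cut. Without barcodes with both CD45 antibodies, cycling barcodes were 8.59, 1.67, 4.03 and 2.18% of barcodes from baseline to resolution. Without barcodes at or above the Scrublet score cut they were 9.71, 1.70, 4.07 and 1.89%. Gene counts without barcodes with both antibodies are given in the closing section. The part of doublets in the marker list, CD45 and antibody results was not tested.

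Cycling barcodes made up the largest share at baseline and the smallest at peak. They were 9.71% of barcodes at baseline (104 of 1071, exact 95% Clopper-Pearson interval 8.0 to 11.6%), 1.73% at peak (103 of 5941, 1.42 to 2.10%), 4.07% at plateau (115 of 2828, 3.37 to 4.86%) and 2.19% at resolution (101 of 4611, 1.79 to 2.66%). These intervals, and all others given here, cover counting error only, and with 1 library a stage no difference between stages could be tested. With every barcode thinned to 3000 gene UMIs the shares were 7.38% (5.77 to 9.26%), 1.01% (0.758 to 1.32%), 2.40% (1.80 to 3.11%) and 1.83% (1.41 to 2.33%). The order of the 4 stages was the same, although the plateau and resolution intervals then overlapped.

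**Figure D1:**
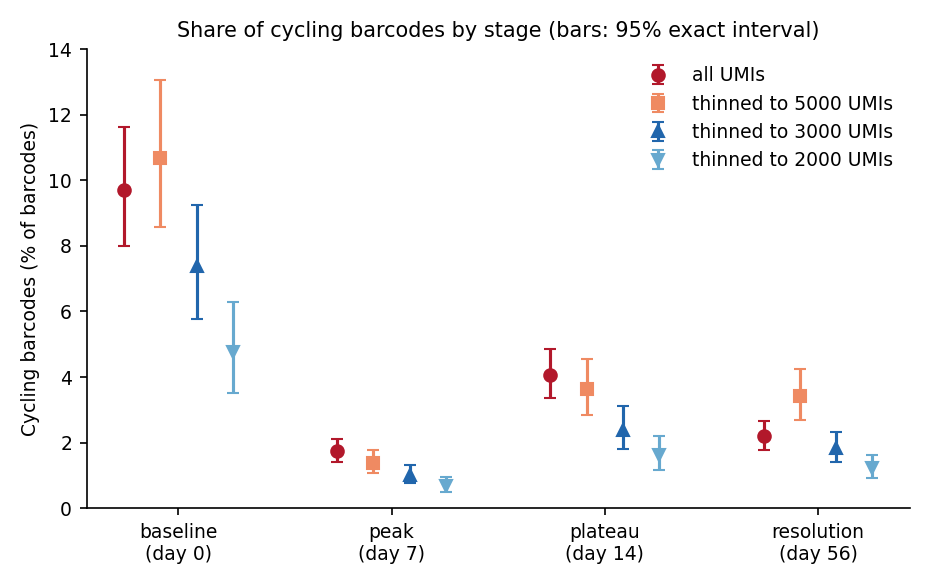
Share of kept barcodes that were cycling (percent, vertical axis) at each stage, with all UMIs and after thinning every barcode to 5000, 3000 or 2000 gene UMIs, with exact 95% intervals of counting error in 1 library. With all UMIs baseline stands highest at 9.71% and peak lowest at 1.73%, and the order of the stages is the same at each depth.

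The 6 genes chose the barcodes, so their levels are a description. Ube2c was at 412, 411, 470 and 455 CPM (UMIs of the gene in every 1000000 gene UMIs of the pooled barcodes) in cycling barcodes from baseline to resolution, against 1.48 to 5.04 CPM in non-cycling barcodes. Mki67 was at 418, 250, 245 and 402 CPM in cycling barcodes, against 6.38, 3.09, 2.43 and 12.8 CPM in non-cycling ones. Top2a followed the same course as Mki67, with 384, 231, 232 and 416 CPM in cycling barcodes, so both were lower at peak and plateau than at the ends of the course. Birc5 was at 270, 342, 359 and 333 CPM, Cdk1 at 152, 154, 169 and 196 CPM, and Cenpf at 151, 144, 155 and 183 CPM in cycling barcodes. In cycling barcodes the share with a UMI ran from 60.0% (Cenpf at plateau) to 100% (Mki67 at baseline), against 0.308% to 4.26% in non-cycling barcodes, and each of the 6 markers was thus present in every library. Just inside the threshold, 5, 16, 23 and 12 barcodes held exactly 3 of the 6 genes. Just outside it, 14, 38, 50 and 28 barcodes held 2, with median gene UMIs of 18598.5, 21324.5, 21164 and 9905, against 19463, 17646.5, 21246 and 12524.5 just inside. At baseline 64 of the 104 cycling barcodes held all 6 genes, against 43 of 103 at peak, 44 of 115 at plateau and 41 of 101 at resolution.

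Other genes of the cell cycle were high in the same barcodes in all libraries. Of 2377 genes that reached 50 CPM in the cycling or the non-cycling pool of each library, 4.16% (99) were at least 2-fold higher in cycling barcodes of every library and 1.01% (24) at least 2-fold lower. Of the cell cycle lists, 38 genes were among the 99, the 6 rule genes included, and none among the 24. The rule used RNA of the same barcodes, and a gene silent outside cycling barcodes reached 50 CPM only through them, so these counts describe the barcodes and support nothing further.

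The DNA synthesis list had 12 genes, of which 8 were measured well enough, and those 8 were all higher. Rrm2, a subunit of the enzyme that makes deoxyribonucleotides, was at 223, 115, 112 and 256 CPM in cycling barcodes from baseline to resolution, against 2.35, 0.772, 1.61 and 1.79 CPM in non-cycling barcodes. Pclaf, which binds the replication clamp, was at 440, 329, 248 and 496 CPM against 2.58, 1.63, 2.17 and 2.14 CPM. Of 12 genes for origin licensing, 3 were measured well enough and were higher. The median over the whole list was 2.61, 3.33, 2.82 and 3.10 on the log2 scale. Over the 14416 genes with at least 30 UMIs in all pools together it was -0.29, 0.30, 0.07 and -0.10. The spindle and kinetochore list (17 genes, 9 measured well enough, 9 higher) had medians of 5.71, 6.17, 4.89 and 5.38. Hmmr, a spindle-associated protein, was at 92.8, 123, 113 and 105 CPM in cycling barcodes against 0.269 to 0.337 CPM in non-cycling ones.

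Cyclins of S phase and mitosis were nearly absent outside cycling barcodes. Ccna2 (cyclin A2, of S phase and G2) was at 99.4, 102, 108 and 132 CPM in cycling barcodes against 0 to 0.449 CPM in non-cycling ones. Ccnb1 (cyclin B1, the partner of Cdk1) was at 58.8, 69.0, 81.4 and 52.6 CPM against 0.112 to 0.486 CPM. Cdk4, the kinase of G1, differed less, at 63.4, 176, 221 and 134 CPM in cycling barcodes against 48.8, 61.0, 92.5 and 54.8 CPM. Of 13 cyclin and kinase genes, 7 were measured well enough and 5 were at least 2-fold higher in every library. Among 11 cell cycle inhibitors none of the 5 measured well enough was past 2-fold in every library. By stage, 4 of 5 were at least 2-fold lower in cycling barcodes at peak (14.7% of all 3255 tested genes) and 4 of 5 at plateau (10.1% of 3371). At baseline 0 of 7 were lower and 1 higher (7.99% and 7.17% of 3067 genes). At resolution 2 of 6 were lower and 2 higher (7.25% and 8.06% of 3312). Btg2, an antiproliferative gene, was at 384, 102, 43.8 and 192 CPM in cycling barcodes against 616, 556, 235 and 454 CPM in non-cycling ones.

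Replication histone genes varied along the course, and 7 of the 11 tested were at least 2-fold lower at peak than at baseline in cycling barcodes, as were 13.5% of all 3250 genes tested. The histone H1 gene Hist1h1b was at 1459, 715, 166 and 1072 CPM in cycling barcodes from baseline to resolution, against 9.72 to 19.2 CPM in non-cycling ones. Hist1h2ap was at 1265, 31.2, 24.5 and 517 CPM in cycling barcodes, against 7.17, 0.754, 0.711 and 7.02 CPM. Plateau was thus lowest for both. By contrast H2afz, a histone variant made throughout the cycle, stayed between 3467 and 4287 CPM in cycling barcodes, against 1332 to 1442 CPM in non-cycling ones. Most replication histone messages lack a poly(A) tail, and the library captured poly(A) RNA, so these counts sample only part of them. Comparing the summed UMIs of 24 S phase genes and 25 mitosis genes, 37 of 104 cycling barcodes had more of the S phase set at baseline, 40 of 103 at peak, 52 of 115 at plateau and 40 of 101 at resolution. After thinning, 34.0, 36.4, 37.5 and 45.0% of cycling barcodes held at least 5 genes of the DNA synthesis and licensing lists, against 0.488, 0.0971, 0.373 and 0.823% of non-cycling ones.

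**Figure D2:**
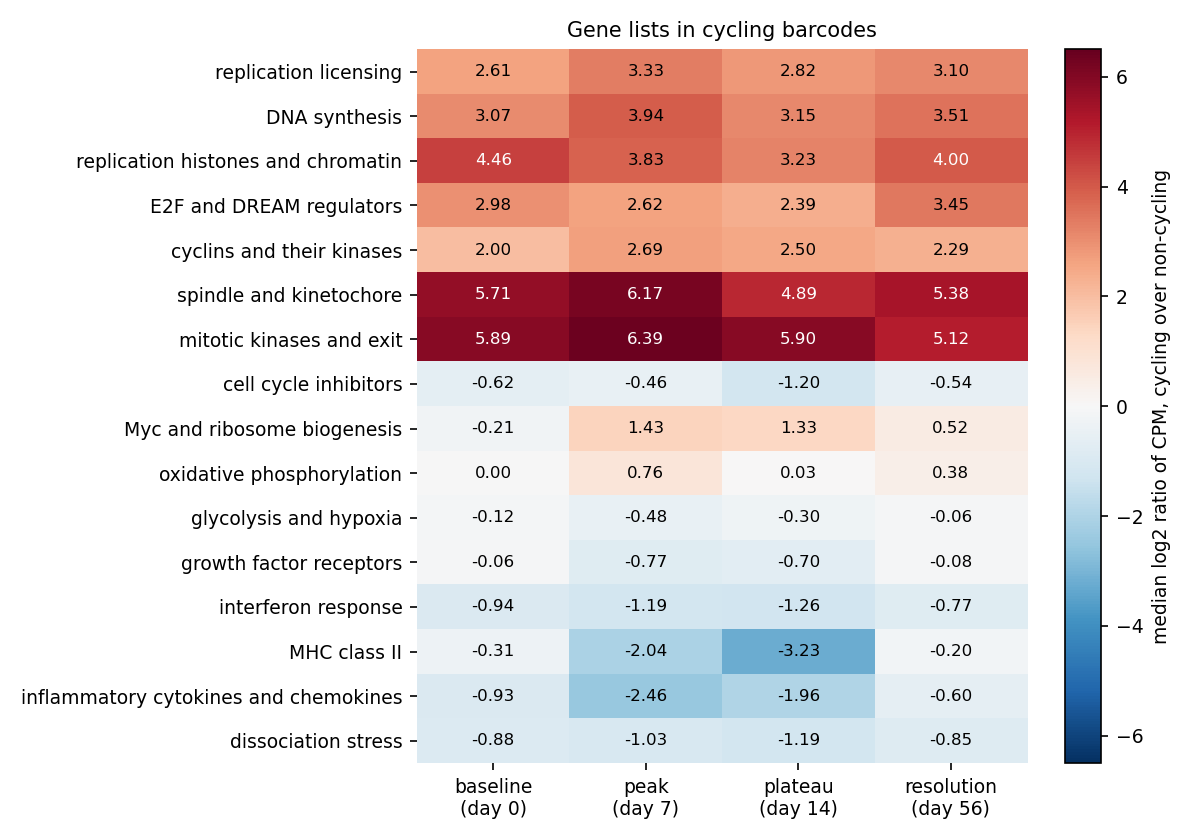
Median log2 ratio of CPM, cycling over non-cycling barcodes, for gene lists (rows) in each library (columns, baseline to resolution). Drawn are the cell cycle lists other than the rule genes, and the programme lists other than growth factors and sort markers. Of the lists drawn, the spindle and mitotic lists stand highest in every column, from 4.89 to 6.39, and the MHC class II list is lowest at plateau, at -3.23.

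Which cell markers the cycling barcodes carried changed along the course. A barcode was counted as a carrier of a list when at least 3 genes of that list had a UMI after thinning to 3000 gene UMIs, which left 103, 99, 112 and 100 cycling barcodes. At baseline neutrophil genes stood out. Neutrophil-list carriers were 49 of 103 cycling barcodes (47.6%, 37.6 to 57.6%) against 2.69% of non-cycling barcodes, and 69.0% of all neutrophil-list carriers in that library were cycling (49 of 71, 56.9 to 79.5%). In the arthritis libraries these carriers were few, at 8 of 99 cycling barcodes at peak (8.08% against 0.583% of non-cycling), 1 of 112 at plateau (0.893% against 0.233%) and 5 of 100 at resolution (5.00% against 0.235%). The list covers genes of immature and mature neutrophils. Camp, a secondary granule gene encoding cathelicidin, was at 29280 CPM in cycling barcodes at baseline and detected in 69 of 104, against 747 CPM in non-cycling barcodes. Ngp, another granule gene of developing neutrophils, was at 22136 CPM against 521 CPM and detected in 59 of 104. Ly6g, the sort's own neutrophil marker, was at 11.2 CPM in cycling barcodes and 0.560 CPM in non-cycling ones, while Cd177 was at 226 and 86.8 CPM, and the antibody to Ly6G gave 3.79 and 6.28 of every 10000 antibody UMIs.

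Granulocyte-monocyte progenitor genes were carried by cycling barcodes at 3 of the 4 stages. Carriers of that list were 10 of 103 cycling barcodes at baseline (9.71%, 4.75 to 17.1%), 7 of 99 at peak (7.07%), 0 of 112 at plateau and 7 of 100 at resolution (7.00%), against 0, 0, 1 and 2 non-cycling barcodes. At baseline the cycling share was 30.1% with 2 genes required and 47.1% without thinning, against 0.977% and 0.310% of non-cycling barcodes. Elane, the neutrophil elastase gene of the promyelocyte, was at 352, 626, 0 and 581 CPM in cycling barcodes, against 2.13, 1.06, 0.112 and 13.2 CPM in non-cycling ones. Mpo, encoding myeloperoxidase, was at 64.1, 69.4, 0 and 90.7 CPM against 0.672, 0.413, 0.0374 and 2.22 CPM. Plateau thus lacked both genes in cycling barcodes. Few barcodes carried them, with Elane in 34, 12, 0 and 8 cycling barcodes and Mpo in 8, 7, 0 and 7. Progenitor carriers also carried the neutrophil list in 6 of 10 at baseline, 7 of 7 at peak and 5 of 7 at resolution.

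Ngp, Camp, S100a8 and S100a9 were past 2-fold in every library, but at plateau their level came from 1 barcode. Without it, in cycling barcodes, Ngp was at 0.353 CPM in place of 540, Camp at 1.06 CPM in place of 682, S100a8 at 2.47 CPM in place of 470 and S100a9 at 0.353 CPM in place of 746. Without the top barcode of each gene, an alternative chosen after seeing the data, 85 genes in place of 99 were at least 2-fold higher in every library and 44 in place of 24 lower. The barcode was left out of the cycling pool only, so ratios could hardly rise. Lcn2, Pcna, Ccnb1, Camp, Ngp, S100a8 and S100a9 were among the 14 genes lost from the higher group.

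The osteoclast list was the one most often carried by cycling barcodes at peak and plateau, with thinning and 3 genes required. With 2 genes the Spp1 and Arg1 macrophage list was carried more often, at 62.6% against 53.5% at peak and 80.4% against 75% at plateau. Without thinning it was again ahead, at 82.5% against 64.1% and 89.6% against 81.7%. Osteoclast-list carriers were 1 of 103 cycling barcodes at baseline, 49 of 99 at peak (49.5%, 39.3 to 59.7%), 63 of 112 at plateau (56.2%, 46.6 to 65.6%) and 5 of 100 at resolution (5.00%). In non-cycling barcodes the shares were 0, 5.38% (4.78 to 6.03%), 23.6% (21.8 to 25.4%) and 1.32%. Of all osteoclast-list carriers, 15.0% were cycling at peak (49 of 326, 11.3 to 19.4%), 11.1% at plateau (63 of 568, 8.63 to 14.0%) and 10.0% at resolution (5 of 50). Ctsk, the collagen-degrading cathepsin K, was at 70.7, 7626, 8631 and 1031 CPM in cycling barcodes, against 32.0, 2658, 11889 and 538 CPM in non-cycling ones. It was thus higher in cycling barcodes at peak and lower at plateau, although carriers were more frequent among cycling barcodes at both. Acp5, encoding tartrate-resistant acid phosphatase, was at 37.0, 3159, 4352 and 620 CPM in cycling barcodes against 19.9, 1350, 6533 and 181 CPM. No osteoclast-list carrier among cycling barcodes also carried the neutrophil or the progenitor list, and 1 at peak also carried the resident macrophage list.

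**Figure D3:**
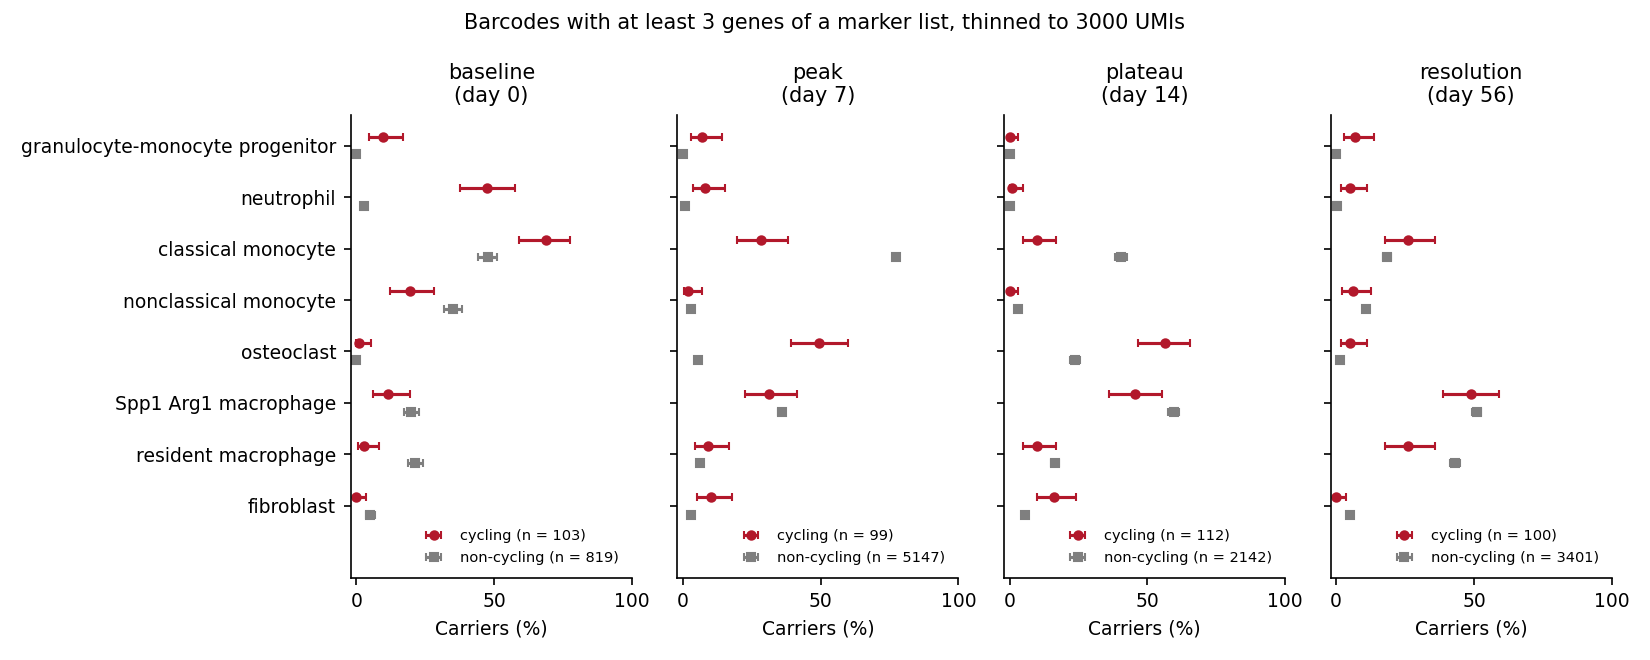
Percent of barcodes carrying each marker list (at least 3 genes after thinning to 3000 gene UMIs) among cycling and non-cycling barcodes of each library, with exact 95% intervals of counting error. Neutrophil-list carriers reach 47.6% of cycling barcodes at baseline, and osteoclast-list carriers 49.5% at peak and 56.2% at plateau.

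Classical monocyte genes went the other way between baseline and peak. Carriers of that list (Ly6c2, Ccr2, Vcan and others) were 68.9% of cycling barcodes at baseline (71 of 103, 59.1 to 77.7%) against 47.6% of non-cycling ones, but 28.3% at peak against 77.3%, 9.82% at plateau against 40.3%, and 26.0% at resolution against 18.4%. Some genes on this list are also made by developing neutrophils, and the shares of carriers of several lists overlapped. Chil3, on the list, was at 1806, 404, 86.3 and 286 CPM in cycling barcodes, against 212, 652, 103 and 60.4 CPM in non-cycling ones. Ccr2, the receptor that brings monocytes out of marrow, was at 431, 168, 44.5 and 357 CPM against 568, 818, 433 and 355 CPM. The 2 genes therefore differed at baseline, where Chil3 was higher and Ccr2 lower in cycling barcodes. Nonclassical monocyte carriers were 19.4, 2.02, 0 and 6.00% of cycling barcodes, against 35.0, 3.11, 3.08 and 10.9%. Without thinning they were 82.7, 16.5, 6.96 and 24.8% of cycling barcodes against 53.2, 15.0, 8.26 and 18.2%, so the direction turned at 3 stages, and at baseline requiring 2 genes gave 52.4% against 49.9%. The share of 0 at plateau (0 of 112) allows up to 2.68% by counting error (3 counts of 112).

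Resident macrophage and Spp1 and Arg1 macrophage genes were also carried by cycling barcodes. Resident macrophage carriers were 2.91, 9.09, 9.82 and 26.0% of cycling barcodes from baseline to resolution, against 21.4, 6.08, 16.5 and 43.1% of non-cycling ones, and the intervals overlapped at peak and plateau. Without thinning the plateau shares were 21.7% of cycling and 18.7% of non-cycling barcodes. Carriers of the Spp1 and Arg1 macrophage list were 11.7, 31.3, 45.5 and 49.0% against 19.9, 35.8, 59.6 and 50.9%, with overlapping intervals at all stages but plateau. Without thinning, where cycling barcodes were the deeper ones, the direction turned at all 4 stages, with 64.4, 82.5, 89.6 and 80.2% of cycling barcodes against 35.2, 61.0, 78.4 and 53.1%. At resolution 41.0% of cycling barcodes carried none of the neutrophil, progenitor, classical monocyte, osteoclast and resident macrophage lists, against 38.4% of non-cycling barcodes. Lymphocyte, mast cell, endothelial, eosinophil, erythroid and platelet lists were nearly absent from cycling barcodes, where 1 barcode in all carried the T cell list and 3 the B or plasma cell list after thinning.

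Fibroblast genes were carried by 10 of 99 cycling barcodes at peak (10.1%, 4.95 to 17.8%) and 18 of 112 at plateau (16.1%, 9.81 to 24.2%), against 2.78% and 5.51% of non-cycling ones. At baseline 0 of 103 cycling barcodes carried them, which allows up to 2.91% (3 counts of 103), and at resolution 0 of 100, which allows up to 3%, against 5.01% and 5.03% of non-cycling ones. Col1a1, encoding type I collagen, was at 3.30, 980, 678 and 0 CPM in cycling barcodes, against 274, 424, 829 and 210 CPM in non-cycling ones. Ptprc, which encodes CD45, was at 412, 174, 143 and 349 CPM in cycling barcodes against 688, 485, 293 and 469 CPM, and Itgam, which encodes CD11b, at 215, 91.9, 70.5 and 182 CPM against 307, 328, 243 and 301 CPM. Both were present in cycling barcodes of every library and lower than in the rest, by the most at peak and plateau for Itgam. Among fibroblast-list carriers at plateau 1 of 18 cycling and 12 of 118 non-cycling barcodes had enough CD45 antibody UMIs to be assigned. At peak 2 of 10 cycling and 25 of 143 non-cycling carriers did. The part of fibroblast RNA in the other differences was not tested.

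**Figure D4:**
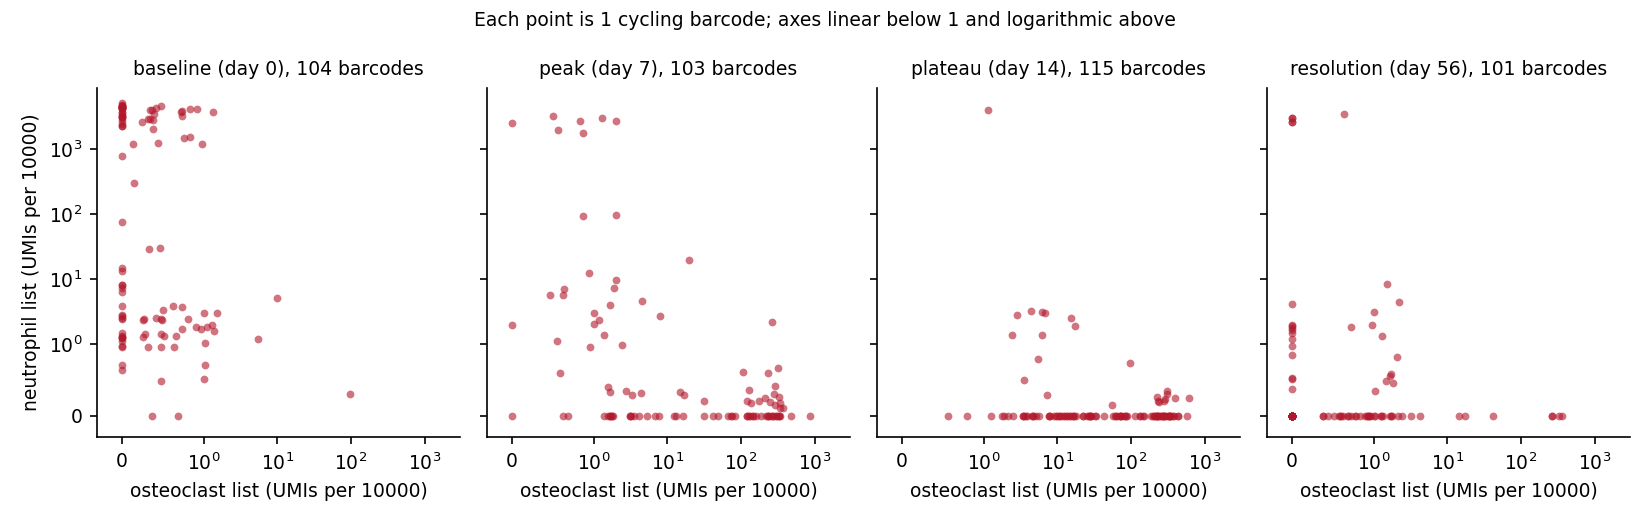
Each point is 1 cycling barcode, placed by its osteoclast-list UMIs (horizontal) and neutrophil-list UMIs (vertical) in every 10000 gene UMIs, 1 panel a library, on axes that are linear below 1 and logarithmic above. Barcodes above 1000 for the neutrophil list are many at baseline, few at peak and resolution and 1 at plateau, and their osteoclast-list levels stay at or below 2.01.

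Of the 24 genes lower in cycling barcodes of all libraries, 13 kept the call with TMM-scaled totals and 10 against deep non-cycling barcodes only. Apoe, a lipid carrier, was at 660, 272, 180 and 200 CPM in cycling barcodes, against 1917, 2110, 1872 and 702 CPM in non-cycling ones. Adgre1, encoding F4/80, was at 24.1, 12.9, 15.4 and 17.3 CPM in cycling barcodes against 77.4, 55.2, 52.7 and 84.5 CPM. Cycling barcodes were lower in each of the 4 libraries for both genes. The complement receptors C5ar1 and C3ar1 had median log2 ratios of -2.38 and -2.12, and Selenop, a selenium carrier, -2.26. Apoe and Selenop kept the call under both of those settings, Adgre1 and C3ar1 with TMM only, and C5ar1 under neither.

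Some programmes differed from the rest of the library at peak and plateau and less at the other stages. At peak 17% of 3255 tested genes were at least 2-fold higher in cycling barcodes and 14.7% lower, and at plateau 8.57% and 10.1% of 3371. All 6 MHC class II genes measured well enough were at least 2-fold lower at peak and all 6 at plateau, and none at baseline (7.99% of 3067 genes lower) or resolution (7.25% of 3312 lower). Cd74, the invariant chain that escorts MHC class II, was at 2115, 948, 261 and 8081 CPM in cycling barcodes, against 3063, 3920, 2458 and 9623 CPM in non-cycling ones. Of inflammatory cytokine and chemokine genes, 8 of 10 were at least 2-fold lower at peak and 8 of 8 at plateau, against 3 of 7 at baseline and 0 of 6 at resolution. Il1b, a cytokine made by inflamed monocytes, was at 629, 254, 314 and 388 CPM in cycling barcodes against 1067, 3006, 1864 and 592 CPM. Of ribosome biogenesis genes 6 of 7 were at least 2-fold higher at peak and 6 of 7 at plateau, 0 of 3 at baseline (7.17% of genes higher) and 1 of 7 at resolution (8.06% higher). Npm1, a nucleolar chaperone of ribosome assembly, was at 466, 1332, 1644 and 721 CPM in cycling barcodes against 539, 482, 655 and 494 CPM. TMM scaling moved the log2 ratios of all genes by 0.24, -0.40, -0.30 and 0.02 from baseline to resolution, and the small baseline difference of the ribosome biogenesis list (-0.21) then turned to 0.03.

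Osteoclast-list carriers were compared with each other, since cycling carriers were frequent only at peak and plateau. Cycling carriers had lower levels of the mature osteoclast genes than non-cycling carriers of the same library. Oscar, a costimulatory receptor of osteoclasts, was at 21.4 CPM in cycling carriers against 143 CPM in non-cycling carriers at peak, and at 14.8 against 204 CPM at plateau. Itgb3, the beta chain of the vitronectin receptor, was at 31.3 against 91.0 CPM and at 18.4 against 120 CPM. Ctsk differed less, at 13179 against 22719 CPM at peak and 12402 against 26308 CPM at plateau. Dcstamp and Ocstamp, both needed for fusion, were at 154 and 95.5 CPM in cycling carriers at peak against 208 and 186 CPM, and at 152 and 71.0 CPM at plateau against 370 and 257 CPM. Each of the 10 genes of the list was lower in cycling carriers at both stages, though Calcr was at or near 0 in both groups. Ribosome biogenesis genes were higher, as with Ncl (nucleolin) at 922 against 454 CPM at peak and 925 against 386 CPM at plateau. Cycling carriers were deeper, with median gene UMIs of 32378 against 20633 at peak and 27894 against 21747 at plateau. These are 49 and 63 cycling barcodes of 1 library each, and carriers were chosen on the same list.

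Between stages, cycling barcodes themselves were compared as pooled counts of 1 library each, with no replicate check. TMM scaling would move the log2 ratios of the 3 contrasts by -0.39, -0.15 and 0.19. The sign of the list median then turned for 5 of 31, 8 of 28 and 1 of 30 lists, with the rule genes among the 8. The osteoclast and MHC class II lists did not turn. At peak against baseline 22.1% of 3250 genes were at least 2-fold higher and 13.5% lower. These were 718 higher and 439 lower genes, and with TMM 393 higher and 777 lower. Mmp9, a gelatinase of osteoclasts, was at 1679 CPM in cycling barcodes at peak (55 barcodes) against 1.32 CPM at baseline. Ltf, lactoferrin of neutrophil granules, was at 25.6 CPM at peak against 2365 CPM at baseline, and Stfa1, another neutrophil gene, at 0 against 285 CPM. Fibroblast and joint-lining genes were also among the highest, with Prg4 (lubricin) at 2247 against 1.65 CPM and Cthrc1 at 286 against 0 CPM (at least 289-fold higher, floor 3 UMIs in the baseline pool), but 63.6% of the Cthrc1 UMIs came from 1 of 10 barcodes. Lox and Timp1, further matrix genes, were at 123 and 533 CPM at peak against 0 and 0.660 CPM at baseline.

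Of the 3 contrasts, peak and plateau differed least, with 1.08% of 3156 genes at least 2-fold higher and 3.77% lower in cycling barcodes at plateau. Elane was at 0 CPM at plateau against 626 CPM at peak (at least 595-fold lower), and Prtn3, encoding proteinase 3, at 8.77 against 448 CPM. Among those higher, Igfbp5, an IGF-binding protein, was at 243 CPM at plateau against 34.9 CPM at peak and Cxcl5, a neutrophil-attracting chemokine, at 155 against 27.2 CPM. None of the 7 osteoclast genes tested was past 2-fold in this contrast in cycling barcodes, while their median log2 ratio in non-cycling barcodes was 2.16.

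At resolution against plateau 12.2% of 3418 genes were at least 2-fold higher and 13.5% lower in cycling barcodes. Ccl17, a chemokine of dendritic cells and alternatively activated macrophages, was at 669 CPM at resolution against 0 at plateau (at least 636-fold higher), in 26 barcodes. Mgl2, a lectin of the same cells, was at 424 against 0 CPM (at least 403-fold higher), in 56 of 101 barcodes. All 6 tested MHC class II genes were higher, with a median log2 ratio of 4.64 in cycling barcodes and 1.62 in non-cycling ones, against -0.18 over all tested genes. Col1a1 was at 0 CPM at resolution against 678 CPM at plateau (at least 327-fold lower), and all 7 osteoclast genes were lower, with a median of -2.81. None of the 6 rule genes was past 2-fold between neighbouring stages.

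The CD45 variant on the surface separates donor from host cells and was not used by the rule. A barcode was assigned when the CD45.1 and CD45.2 antibodies together had at least 10 UMIs, as host (recipient) when at most 25% were CD45.1 and as donor when at least 75% were. Recipient shares of assigned cycling barcodes were 4.88% at baseline (4 of 82, 1.34 to 12%), 28.0% at peak (23 of 82, 18.7 to 39.1%), 19 of 95 barcodes at plateau (12.5 to 29.5%) and 18.3% at resolution (11 of 60, 9.52 to 30.4%). In non-cycling barcodes they were 21.7% (18.8 to 24.9%), 2.78% (2.36 to 3.26%), 6.33% (5.37 to 7.40%) and 24.5% (22.5 to 26.5%). The recipient share was therefore above that of non-cycling barcodes at peak and plateau and below it at baseline and resolution, with overlapping intervals at resolution. Across libraries the difference averaged 3.99 percentage points (SD 19.0, n = 4 libraries), and an exact two-sided sign-flip permutation test gave p = 0.75, where 0.13 is the smallest that 4 libraries allow. Most assigned cycling barcodes were of donor type at each stage, with 67 donor barcodes at baseline, 58 at peak, 76 at plateau and 46 at resolution. Mixed barcodes numbered 11, 1, 0 and 3, and 22, 21, 20 and 41 had too few antibody UMIs.

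The recipient barcodes of the cycling group carried different lists by stage. At peak 19 of 23 recipient cycling barcodes carried the osteoclast list, against 28 of 58 donor cycling barcodes. At plateau the counts were 11 of 19 recipient and 48 of 74 donor barcodes, so the 2 variants were close there. Seen from the list, 40.4% of assigned cycling osteoclast-list carriers were recipient at peak (19 of 47, 26.4 to 55.7%) against 13.7% of non-cycling carriers (35 of 255, 9.75 to 18.6%). At plateau the shares were 18.6% (11 of 59, 9.69 to 30.9%) against 10.6% (8.03 to 13.8%), with overlapping intervals. At resolution 7 of 11 recipient cycling barcodes carried the classical monocyte list, against 4 of 45 donor ones. At baseline 26 of 37 assigned neutrophil-list carriers were donor, 1 recipient and 10 mixed. Resident macrophage carriers at resolution, the group known to persist in tissue, were recipient in 17.6% of assigned cycling barcodes (3 of 17, 3.80 to 43.4%). In non-cycling ones the share was 43.8% (331 of 755, 40.3 to 47.5%), and the intervals overlapped.

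**Figure D5:**
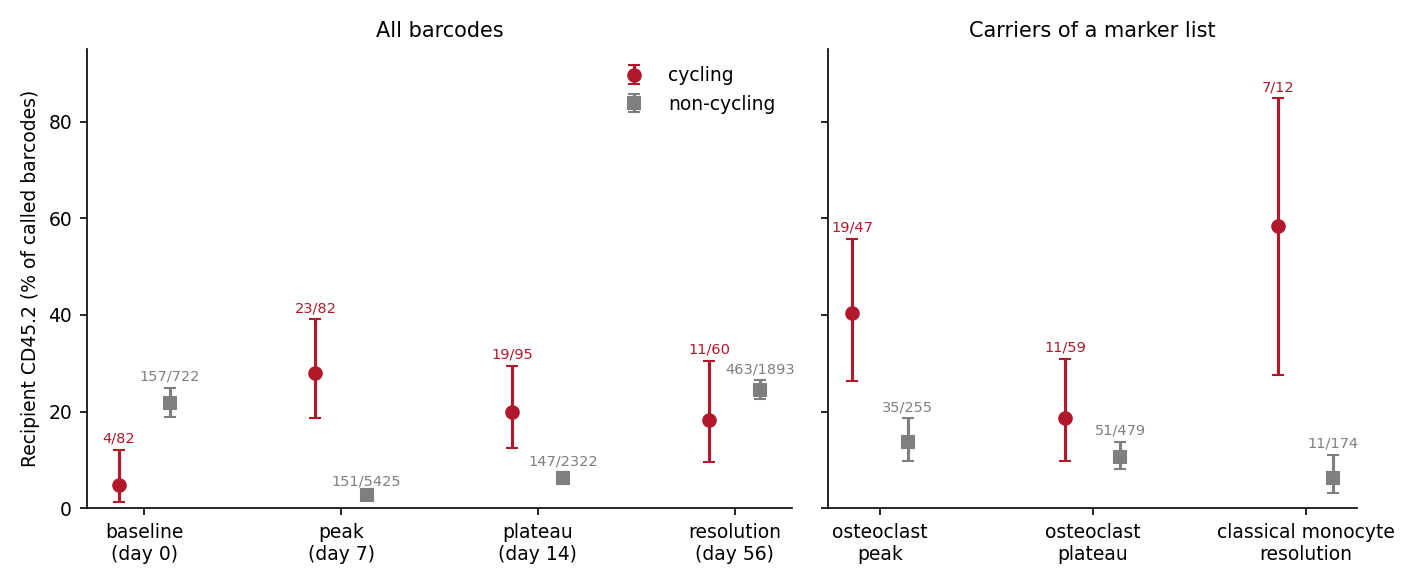
Percent of assigned barcodes of recipient CD45 type among cycling and non-cycling barcodes, for each library (left) and for carriers of the osteoclast list at peak and plateau and of the classical monocyte list at resolution (right), with exact 95% intervals of counting error. Cycling barcodes stand above non-cycling ones at peak (28.0% against 2.78%) and below them at baseline (4.88% against 21.7%).

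Antibodies gave the second readout that the rule had not used. None of the 74 antibodies tested passed an adjusted p of 0.05 (0% called; edgeR quasi-likelihood test on 4 library pairs, Benjamini-Hochberg adjustment), and 17.6% (13) had an unadjusted p under 0.05. CD71 was the largest of these. It took 20.4, 607, 628 and 48.2 of every 10000 antibody UMIs in cycling barcodes from baseline to resolution, against 7.31, 54.3, 158 and 26.9 in non-cycling ones. Cycling barcodes were higher in 4 of 4 libraries, by the most at peak, and the log2 ratio was 2.31 (SE 0.453, edgeR adjusted p = 0.133; 5.49e-08 to 0.634 over the alternatives). The median share per barcode was 152 against 17.8 at peak and 172 against 15.7 at plateau, but 0 against 0 at resolution. The pools also differed in the lists they carried. Osteoclast-list carriers were 49.5% of cycling and 5.38% of non-cycling barcodes at peak, and 56.2% and 23.6% at plateau. CD71 within those carriers is given further on, where the groups lay closer. The part of this mix in the CD71 difference was not tested.

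CD106 (VCAM-1, an adhesion molecule) took 25.4, 23.6, 18.4 and 31.2 per 10000 in cycling barcodes against 4.96, 6.05, 7.06 and 22.5, with a log2 ratio of 1.90 (SE 0.435, edgeR adjusted p = 0.133; 0.000204 to 0.371 over the alternatives). CD71 and CD106 passed the threshold under 4 alternatives, given in the closing section. CD54 (ICAM-1) took 480 against 263 at peak and 972 against 360 at plateau, but 97.0 against 128 at baseline, so its direction was not shared by all libraries. CD43 (sialophorin) was higher in cycling barcodes of all 4 libraries, from 1213 against 820 at plateau to 1940 against 1264 at baseline. CD14, the lipopolysaccharide co-receptor of monocytes, was lower in all 4, at 2.44, 118, 277 and 25.1 per 10000 against 11.8, 361, 478 and 48.0 (log2 ratio -1.04, edgeR adjusted p = 0.133). VISTA, an inhibitory receptor of myeloid cells, was lower in all 4 as well, from 76.9 against 119 at plateau to 41.8 against 110 at resolution.

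The antibodies of the sort were read on the same barcodes. CD11b took 2928, 2473, 2936 and 3504 per 10000 in cycling barcodes against 2647, 3136, 3001 and 3519 in non-cycling ones. Ly6C took 2478 against 2688 at baseline, and between 90.8 and 182 against between 85.1 and 312 at the arthritis stages, although the sort was for cells without Ly6C. CD64 stayed between 4.31 and 25.4 in cycling barcodes against 8.42 to 25.4. The antibody to MHC class II took 278, 540, 326 and 1356 against 134, 390, 403 and 899. It was thus higher in cycling barcodes at every stage but plateau, whereas MHC class II RNA was lower in them at peak. This difference between RNA and antibody was not tested.

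Within osteoclast-list carriers the surface was read at peak and plateau only, since baseline had 1 cycling carrier and resolution 5. CD61, the protein of Itgb3, took 426 per 10000 in cycling carriers against 2258 in non-cycling carriers at peak, and 637 against 3538 at plateau, with medians per barcode of 106 against 719 and 63.8 against 1506. CD71 ran the other way, at 1394 against 560 at peak and 1015 against 535 at plateau, with medians of 522 against 174 and 381 against 136. These values come from 1 library a stage and were not tested.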

How the data were processed

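The deposited counts were raw UMI counts per barcode for 32285 genes and 92 antibodies, per the file headers made by the authors with Cell Ranger 6.1.2, and per the submitters' processing notes against mm10, with Seurat 4.4.0 also listed. Libraries were 10x 3′ (v3.1), per the labels' protocols. Each stage was 1 library. The members and lists were chosen with earlier results of these data known. CPM used summed UMIs with 0.5 counts added for ratios. A gene was counted when it had at least 50 CPM in the higher group and at least 30 UMIs and differed by at least 2-fold. The named genes were the 12 highest and 12 lowest by median ratio over libraries, the 6 highest and lowest of each stage contrast, list members and sort markers. Genes named as lost without a top barcode, and examples from lists beyond each list's leading members, were chosen after their values were seen. Antibody sums were tested with edgeR 4.0.16 (TMM, library as block, antibodies with at least 10 UMIs in every sum) and, as an alternative, DESeq2 1.42.0. The edgeR test and the 2-fold rule were tested on simulated data. Python 3.11.15, scanpy 1.11.5, scipy 1.17.1 and R 4.3.3 were used. Thinning drew 3000 UMIs without replacement. The median antibody UMIs were 3518, 863, 476 and 577 per cycling barcode, against 867, 805, 633 and 361 per non-cycling one. The labels do not say whether cells of several mice were pooled, so p-values measure only the spread between these 4 libraries. Promoters were matched by symbol. 1 gene that the naming rule picked is not reported here.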

Additional observations from a re-analysis of the deposited data

Results flagged for a closer look

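Differences between cycling and non-cycling barcodes pointed in opposite directions at baseline and peak for 2 measures, and neither difference between stages was tested, since each stage had 1 library. Carriers of the classical monocyte list were 21.3 percentage points more frequent among cycling than non-cycling barcodes at baseline and -49.0 points (that is, less frequent) at peak. Whether or not they carried the classical monocyte list, 49 of the 103 cycling barcodes at baseline carried the neutrophil list, and 8 of 99 at peak. The overlap of these lists was not counted, and the part of neutrophil-list carriers in the difference was not tested. The recipient share of assigned barcodes differed by 25.3 points, cycling minus non-cycling, at peak and by -16.9 points at baseline. Both CD45 antibodies had at least 10 UMIs on 16 cycling barcodes at baseline and 6 at peak.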

How the results depend on the processing

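With barcodes thinned to 2000, 3000 and 5000 gene UMIs, cycling shares were 4.76, 7.38 and 10.7% at baseline, 0.691, 1.01 and 1.39% at peak, 1.62, 2.40 and 3.62% at plateau and 1.24, 1.83 and 3.41% at resolution. Requiring 2 genes gave 2.37% at peak, 5.83% at plateau and 2.80% at resolution, and 4 genes 9.24, 1.46, 3.25 and 1.93% from baseline on. Baseline was highest and peak lowest under each of these. Without the CPM minimum 550 genes were higher and 168 lower in every library. Leaving out the top barcode of each gene, chosen after seeing the data, took counts from the cycling pool only, so ratios could hardly rise. It gave 44 lower genes, including all 24 of those lower before, and all 85 higher genes were among the 99. Such an overlap was nearly set beforehand and cannot show that the calls are stable. CD71 and CD106 were called higher with no filter on low counts (2 higher, 1 lower), with 4 rule genes required (2 higher) and against deep non-cycling barcodes only (2 higher). DESeq2 called 4 higher (adding CD54 and CD357) and 3 lower (FceRIa, CD14 and Tim4). Leaving out 1 library in turn gave 0 to 0 calls. Baseline progenitor carriers were 30.1% with 2 genes and 47.1% without thinning. Osteoclast carriers were 64.1% at peak without thinning, and at plateau 75% with 2 genes and 81.7% without thinning. TMM gave 393 genes higher and 777 lower at peak against baseline, 18 higher at plateau against peak and 280 lower at resolution against plateau. Without the CPM minimum the higher and lower counts were 2007 and 1095, 261 and 403, and 971 and 1280. The cause of these shifts was not tested, except that dropping a minimum tests more genes. Against the 99 higher and 24 lower genes of all libraries, TMM gave 78 (75 shared) and 26 (13 shared), and deep non-cycling barcodes 98 (95 shared) and 16 (10 shared). Without barcodes with both CD45 antibodies 102 genes were higher (98 shared) and 31 lower (24 shared). The antibody log2 ratios of CD45.1 (0.20) and CD45.2 (0.25), neither of them called, became -0.17 and -0.0878 without TMM, and ranged from -0.0830 to 0.30 and from -0.47 to 0.65 with 1 library left out. At peak against baseline the balance of higher and lower genes turned with TMM. Without thinning the list shares turned for Spp1 and Arg1 macrophages at all stages, nonclassical monocytes at 3 and resident macrophages at plateau. No paired analysis was possible because each stage had 1 library; cycling and non-cycling sums were paired within libraries by the library block. Depth limits the rare lists: with about 100 cycling barcodes a library, a share of 0 allows nearly 3%.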

Other observations

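Among cycling barcodes that carried the neutrophil list at baseline, antibody levels were as follows. CD11b took 3303 of every 10000 antibody UMIs in the 49 cycling carriers against 3115 in the 22 non-cycling carriers, and Ly6C took 2074 against 2099. Ly6G took 4.10 against 31.8, though its median share was 3.38 against 0. CD71 took 27.3 against 8.39 and CD106 39.2 against 17.4. At resolution, the MHC class II antibody had a median of 1243 per 10000 in cycling carriers of the resident macrophage list against 74.3 in non-cycling ones, and 1057 against 152 in carriers of the Spp1 and Arg1 macrophage list. Cd74 RNA over all barcodes of that library was 8081 CPM in cycling barcodes against 9623 CPM in non-cycling ones. These values were not tested.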
